A study of Homo sapiens with 6 samples.

Results

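The Polo-like kinases PLK1, PLK2, PLK3 and PLK4 were followed in polyadenylated RNA of Huh7 cells, an established human liver cancer line. All rows of the deposited transcript table that carry these 4 gene symbols were taken. They are 7 of 63714 transcripts and 4 of 27689 genes. The 6 libraries were 3 labelled NACER_ASO and 3 labelled NC, and the series text speaks of NACER, a lncRNA of the liver, being knocked down. Titles number the libraries as set 2, 5 or 6, with a NACER_ASO and an NC library in every set. Dose, time and the meaning of ASO, NC and set are not in the labels. Nothing there ties a set to its own culture, so the spread behind each p-value may be technical. NACER is not listed under that symbol, and its level was not analysed here. The series title names Plk2 and p21cip1 as partners of NACER as a competing endogenous RNA, an RNA that shares microRNA binding sites with other transcripts, which is why PLK2 has a place in the study's question.

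Polo-like kinases are serine/threonine kinases with an N-terminal kinase domain and C-terminal polo boxes, through which they dock to phosphorylated partners. PLK1 drives mitotic entry, spindle assembly and cytokinesis, and its RNA accumulates in G2 and mitosis in dividing cells. PLK4 is the master kinase of centriole duplication. PLK2 and PLK3 were found as serum-induced genes and respond to DNA damage and other stress.

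The sequences directly upstream of the members are shown because the RNA levels of the family diverged between sets. RefSeq promoter windows of GRCh38.p14 matched all 4 symbols, and the 250 bases before the annotated start are printed for each, with PLK4 represented by the most upstream of its 3 windows. They lie at chr16:23678639-23678888 (plus strand) for PLK1, chr4:127880643-127880892 (plus strand) for PLK4, chr5:58460087-58460336 (minus strand) for PLK2 and chr1:44800127-44800376 (plus strand) for PLK3. Each is written 5′ to 3′ on the gene's strand, and capitals mark exact matches, on either strand, to the motifs reported.
PLK1: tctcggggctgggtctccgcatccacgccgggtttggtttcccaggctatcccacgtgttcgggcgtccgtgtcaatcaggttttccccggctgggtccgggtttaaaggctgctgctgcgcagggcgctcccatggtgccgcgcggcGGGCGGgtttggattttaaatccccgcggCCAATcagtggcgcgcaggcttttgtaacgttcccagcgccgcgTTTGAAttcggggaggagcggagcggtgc
PLK4: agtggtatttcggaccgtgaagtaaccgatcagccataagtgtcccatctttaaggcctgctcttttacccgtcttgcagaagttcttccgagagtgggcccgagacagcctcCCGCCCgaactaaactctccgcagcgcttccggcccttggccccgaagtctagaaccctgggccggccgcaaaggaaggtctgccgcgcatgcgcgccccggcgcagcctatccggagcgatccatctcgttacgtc
PLK2: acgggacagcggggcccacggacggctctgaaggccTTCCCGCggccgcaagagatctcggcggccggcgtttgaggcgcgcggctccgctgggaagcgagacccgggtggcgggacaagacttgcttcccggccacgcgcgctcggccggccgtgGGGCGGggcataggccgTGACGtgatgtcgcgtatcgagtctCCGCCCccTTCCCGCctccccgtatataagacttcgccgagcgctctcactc
PLK3: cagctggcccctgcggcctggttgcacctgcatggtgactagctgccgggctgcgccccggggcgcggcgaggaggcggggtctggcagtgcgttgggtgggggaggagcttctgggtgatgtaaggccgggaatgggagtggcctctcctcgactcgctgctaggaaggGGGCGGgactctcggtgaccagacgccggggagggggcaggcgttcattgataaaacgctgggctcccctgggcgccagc
The motifs reported are the cell cycle homology region CHR (TTTGAA or TTCGAA), the CCAAT box (CCAAT), E2F (TTCCCGC or TTGGCGC), SP1 (GGGCGG), the core of the cyclic AMP response element CRE (TGACG), the TATA box (TATAAA) and the CArG box of serum response genes. Among the 4 printed windows, the CHR letters were found in that of PLK1, between 29 and 24 bases before the start. The PLK1 window also held a CCAAT box and SP1 letters, and SP1 letters occurred in all 4 printed windows. CHR letters occurred in 14.4% and CCAAT in 32.0% of the 34943 RefSeq windows of the same length. The PLK2 window held E2F letters at 2 places, SP1 letters at 2 places and the CRE core, against shares of 7.80%, 42.5% and 21.2% of all windows. The windows of PLK3 and PLK4 held a single SP1 match each, while the PLK4 windows not printed also held E2F letters and a CCAAT box. No CArG box or TATAAA was found in the 4 printed windows, which says only that these letters are absent from them. Other forms of the TATA box were not searched, so the letters tatataag near the end of the PLK2 window were not counted. These motifs overlapped nowhere within the printed windows, and a match is a description of letters, not of a bound site.

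In FPKM (fragments per kilobase of transcript, scaled to each library's fragments), gene levels were the sums over the transcripts of a symbol. PLK1, on chromosome 16 (hg19, 23690093 to 23701688), had 43.3, 67.1 and 51.3 FPKM in NACER_ASO sets 2, 5 and 6, against 53.8, 66.1 and 46.0 FPKM in the NC libraries of the same sets. The 2 highest values were those of set 5, and the ranges of the groups overlapped. PLK4, on chromosome 4 (128802016 to 128820377), had 12.4, 6.63 and 6.91 FPKM in NACER_ASO sets 2, 5 and 6, against 10.7, 6.57 and 9.43 FPKM in NC. Its 2 highest values were those of set 2 and its lowest was NC set 5. Across libraries PLK1 varied 1.55-fold and PLK4 1.89-fold between the lowest and the highest value.

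PLK2, on chromosome 5 (57749810 to 57755966), had 70.5, 7.05 and 37.6 FPKM in NACER_ASO sets 2, 5 and 6, against 79.1, 6.06 and 32.9 FPKM in NC. Both libraries of set 2 were high, both of set 6 intermediate and both of set 5 low, so the libraries grouped by set and not by label. PLK3, on chromosome 1 (45265897 to 45271667), had 9.33, 1.42 and 13.1 FPKM in NACER_ASO sets 2, 5 and 6, against 9.57, 1.33 and 12.1 FPKM in NC. It was also low in both libraries of set 5, but highest in set 6. The range over libraries was 13.1-fold for PLK2 and 9.84-fold for PLK3.

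**Figure D1:**
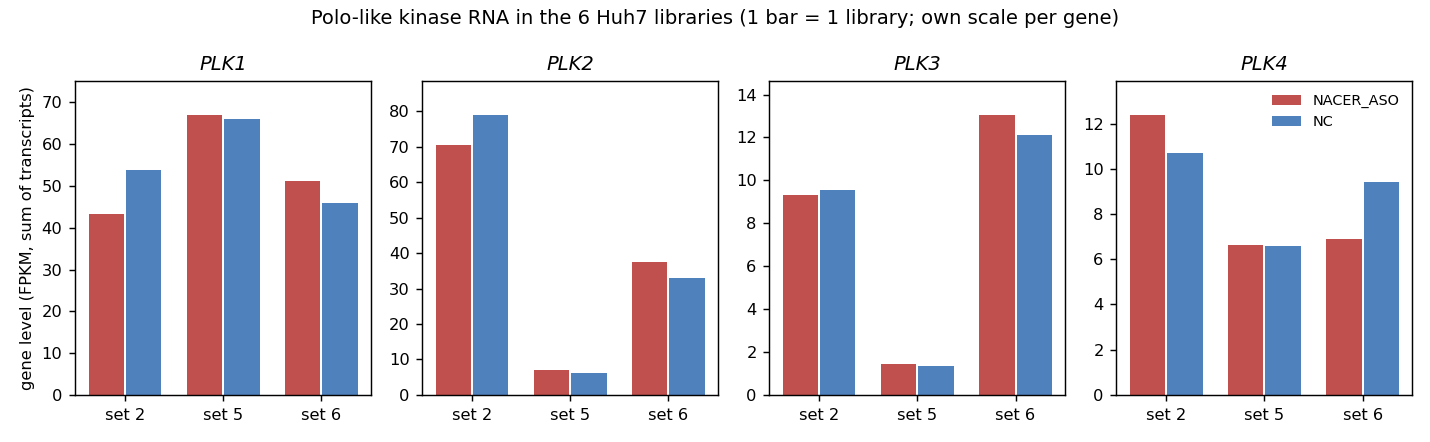
Gene levels in FPKM (y axis, from 0, with its own scale for each gene) of PLK1, PLK2, PLK3 and PLK4 by set (x axis), with 1 bar per library and NACER_ASO to the left of NC. PLK2 and PLK3 are low in both libraries of set 5, at 1.33 to 7.05 FPKM, where PLK1 is highest, at 66.1 and 67.1 FPKM.

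The order of the members by FPKM, a per-length level, differed between sets. In set 2 it was PLK2, PLK1, PLK4, PLK3 in both libraries. PLK2 exceeded PLK1 in each library there, with PLK1 at 0.615 of PLK2 in NACER_ASO and 0.680 in NC, whereas PLK4 and PLK3 lay close together. In set 6 the order was PLK1, PLK2, PLK3, PLK4 in both libraries, with PLK1 at 1.36 of PLK2 in NACER_ASO and 1.40 in NC. In set 5 PLK1 led by 9.51 times over PLK2 in NACER_ASO and 10.9 times in NC. PLK2 and PLK4 changed places between the libraries of set 5 (7.05 and 6.63 FPKM in NACER_ASO, 6.06 and 6.57 FPKM in NC), so these neighbours did not differ beyond the spread. PLK3 came last in set 5. Against the 13576 genes tested, PLK1 lay between the 86.8th and the 92.3rd percentile of level in every library, while PLK2 ranged between the 40.6th and the 93.4th.

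At the level of transcripts, PLK1 and PLK3 have 1 row each (NM_005030 of 2277 bases and NM_004073 of 2497 bases). Nearly all of the PLK2 signal lay in variant 1 (NM_006622, 2838 bases), since variant 2 (NM_001252226, 2796 bases) was listed at 0 in 5 of 6 libraries and at 0.391 FPKM in NACER_ASO set 6. For PLK4, variant 1 (NM_014264, 3868 bases) had 9.45, 6.63 and 6.19 FPKM in NACER_ASO sets 2, 5 and 6, against 9.57, 5.50 and 8.61 FPKM in NC. Variant 2 (NM_001190799) was listed at 0 in NACER_ASO sets 5 and 6 and in NC set 2, with 1.40 FPKM in NACER_ASO set 2 and 0.881 and 0.515 FPKM in NC sets 5 and 6. Variant 3 (NM_001190801) was listed at 0 in NACER_ASO set 5 and reached at most 1.54 FPKM, in NACER_ASO set 2. Variant 1 thus held at least 76.2% of the PLK4 sum in each library. The 3 transcripts share most of their sequence, so their division is uncertain. In all, 4 of the 7 transcripts passed the filter of at least 1 FPKM in at least 3 libraries, 1 per gene, and the gene sums of all 4 members passed.

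No difference between NACER_ASO and NC was detectable in any of the 4 kinases. Within set 2 the difference, NACER_ASO minus NC on the log2(FPKM + 1) scale, was -0.30 for PLK1, -0.16 for PLK2, -0.03 for PLK3 and 0.20 for PLK4. Within set 5 it was 0.02 for PLK1, 0.19 for PLK2, 0.06 for PLK3 and 0.01 for PLK4. Within set 6 it was 0.15 for PLK1, 0.19 for PLK2, 0.10 for PLK3 and -0.40 for PLK4. Each member was on the higher side in 2 sets and on the lower side in 1, so 0 of 4 kept its side in all 3 sets, where 38.3% of the 13576 genes tested did so (27.2% higher and 11% lower in NACER_ASO). PLK1, PLK2 and PLK3 shared the pattern of a lower value in NACER_ASO in set 2 and a higher one in sets 5 and 6. PLK4 had the opposite sign in sets 2 and 6.

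PLK1 averaged 53.9 ± 12.1 FPKM in NACER_ASO and 55.3 ± 10.1 FPKM in NC (SD, n = 3 each). PLK4 averaged 8.64 ± 3.25 FPKM in NACER_ASO and 8.90 ± 2.11 FPKM in NC. For PLK2 the means were 38.4 ± 31.7 FPKM in NACER_ASO and 39.4 ± 36.9 FPKM in NC, and for PLK3 they were 7.94 ± 5.95 FPKM in NACER_ASO and 7.67 ± 5.63 FPKM in NC.

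The limma fit with the group as its only term gave -0.04 for PLK1 (95% confidence interval -0.60 to 0.52), -0.06 for PLK4 (-0.82 to 0.69), 0.07 for PLK2 (-2.61 to 2.75) and 0.04 for PLK3 (-2.13 to 2.21). The adjusted p was 0.999994 for each member, and 0% of the 13576 genes were called in that fit. At an unadjusted p under 0.05 the fit held 20 genes and no member. A two-sided exact permutation test gave p = 0.8 for PLK1, PLK2 and PLK3 and p = 1 for PLK4, with 0.1 the smallest p that 3 against 3 libraries allow.

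When sets entered the model as blocks, the interval narrowed to -0.28 to 0.19 for PLK1, -0.37 to 0.24 for PLK4, -0.15 to 0.29 for PLK2 and -0.16 to 0.25 for PLK3. In the blocked limma fit, PLK1 had an adjusted p of 0.871, PLK4 0.855, PLK2 0.764 and PLK3 0.859, and that fit also called 0% of genes. At an unadjusted p under 0.05 it held 1685 genes and no member. In bulk RNA, fewer cells with a transcript and less transcript per cell cannot be told apart. The 4 transcripts tested singly gave the same picture, with limma differences between -0.07 for PLK4 variant 1 and 0.07 for PLK2 variant 1 and an adjusted p of 0.999942 for each, where 0% of 23390 transcripts were called and 220 had an unadjusted p under 0.05.

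**Figure D2:**
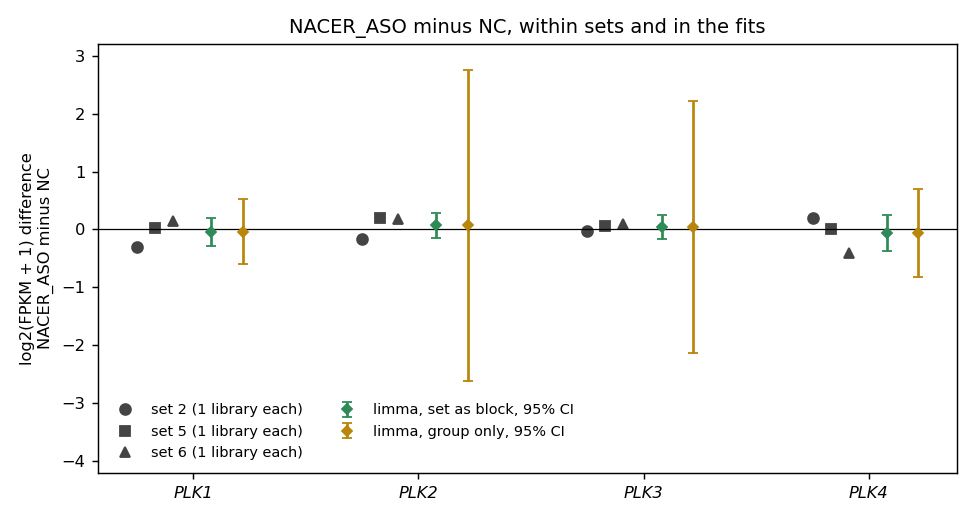
Difference NACER_ASO minus NC in log2(FPKM + 1) (y axis) for each kinase (x axis), as the value within each set (grey symbols, 1 library each) and as the limma estimate with its 95% confidence interval, with the set as a block and with the group only. For PLK2 the interval runs from -0.15 to 0.29 with the block and from -2.61 to 2.75 without it.

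In set 5 against either other set, the stress-induced kinases differed far more than the mitotic ones, while between sets 6 and 2 this held for PLK2 and not for PLK3. All 3 pairs of sets were tested in a limma fit with set and group as terms, 2 libraries against 2. PLK2 was lower in set 5 than in set 2 by a log2 difference of -3.33 (interval -3.60 to -3.06, adjusted p = 1.04e-05) and lower in set 5 than in set 6 by -2.26 (-2.53 to -1.99, adjusted p = 2.86e-05). It was also lower in set 6 than in set 2, by -1.06 (-1.33 to -0.79, adjusted p = 0.00144). These values ranked at the 98.9th, 96.7th and 91.7th percentile of absolute difference over all genes. PLK3 was lower in set 5 than in set 2 by -2.14 (-2.39 to -1.89, adjusted p = 2.82e-05) and than in set 6 by -2.52 (-2.77 to -2.27, adjusted p = 1.67e-05). Between sets 6 and 2 it went the other way than PLK2 did, higher in set 6 by 0.38 (0.13 to 0.63, adjusted p = 0.0258).

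PLK1 was higher in set 5 than in set 2 by 0.46 (0.17 to 0.74, adjusted p = 0.0140) and than in set 6 by 0.45 (0.16 to 0.73, adjusted p = 0.0167). Sets 6 and 2 did not differ detectably in PLK1 (0.01, interval -0.28 to 0.30). PLK4 was lower in set 5 than in set 2 by -0.72 (-1.10 to -0.34, adjusted p = 0.00684). It had -0.26 between sets 5 and 6 (-0.64 to 0.12, adjusted p = 0.189) and -0.46 between sets 6 and 2 (-0.84 to -0.08, adjusted p = 0.0502), which did not pass. So 4 of 4 members passed between sets 5 and 2, 3 of 4 between sets 5 and 6, and 2 of 4 between sets 6 and 2. Of all genes, 70.3%, 64.3% and 48.2% passed in these comparisons, so that passing was no rarity, and the sizes carry more than the counts. The largest log2 gap between set means was 0.46 for PLK1 and 0.72 for PLK4, near or under the median gene's 0.73, against 3.33 for PLK2 and 2.52 for PLK3, the 98.5th and 96.0th percentile.

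Tested as single transcripts, 2 of 4 passed between sets 5 and 2, where 34.9% of 23390 transcripts did (11.6% higher and 23.3% lower). These were PLK2 variant 1 at -3.33 (limma adjusted p = 0.00174) and PLK3 at -2.14 (0.00332). The same 2 passed between sets 5 and 6, at -2.26 (0.00248) and -2.52 (0.00243), where 27.9% did (9.67% higher and 18.2% lower). PLK2 variant 1 alone passed between sets 6 and 2, at -1.07 (0.0307), where 9.71% did (4.35% higher and 5.36% lower), and it no longer passed when any 1 library was left out (adjusted p between 0.0770 and 0.179). PLK1 had 0.46 (0.0633) and 0.45 (0.0767) in the comparisons of set 5 with sets 2 and 6, and PLK4 variant 1 had -0.58 (0.0926) and -0.24 (0.420). PLK1 as a transcript did pass with median-of-ratios scaling (limma adjusted p = 0.0244 against set 2 and 0.0358 against set 6). It also passed against set 2 without NC set 2 (0.0426), and against set 6 with quantile normalization (0.0469) or without NACER_ASO set 2 or NC set 2 (0.0344 each). For PLK4 variant 1 against set 2, the value was -0.35 without NC set 5.

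The smaller gene differences were less firm. The PLK1 call between sets 5 and 2 ended without NACER_ASO set 5 (adjusted p = 0.0840), its value was 0.26 without NACER_ASO set 2, and its call between sets 5 and 6 ended without NACER_ASO set 5 (0.0972) or NC set 6 (0.0992). The PLK3 call between sets 6 and 2 ended without any of NACER_ASO sets 2, 5 and 6 or NC sets 5 and 6 (limma adjusted p between 0.0569 and 0.177), and that of PLK4 between sets 5 and 2 ended with quantile normalization (-0.43, adjusted p = 0.0595). Since set 5 was lower at the median gene (-0.26 against set 2 and -0.16 against set 6), median-of-ratios scaling, which moved these medians to -0.03 and 0.01, placed PLK1 at 0.72 and 0.64 and PLK4 at -0.48 and -0.09, with PLK2 at -3.08 and -2.09 and PLK3 at -1.95 and -2.39. Higher calls made up 33.4% of all calls between sets 5 and 2 as deposited and 48.8% with that scaling, and 36.9% and 49.8% between sets 5 and 6. Between sets 6 and 2 they made up 43.4% as deposited and 56.6% with quantile normalization.

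**Figure D3:**
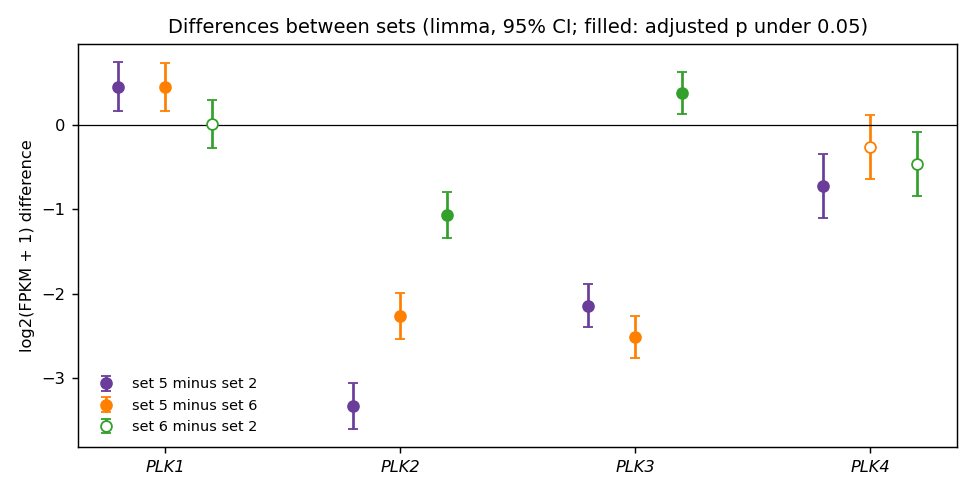
Differences between sets in log2(FPKM + 1) (y axis) for each kinase (x axis) with limma 95% confidence intervals, 2 libraries per set, where filled points passed an adjusted p under 0.05. PLK2 and PLK3 lie between -2.14 and -3.33 in the comparisons of set 5 with the others, while PLK1 lies at 0.45 and 0.46.

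What the labels call a set also went with the markers of the cell line. All 10 hepatocyte markers chosen (such as ALB, AFP and HNF4A) were at 1 FPKM or more in all 6 libraries. Their summed level was 3585 and 3212 FPKM in NACER_ASO and NC of set 2, 6442 and 6285 FPKM in set 5, and 1445 and 1488 FPKM in set 6. AFP, the fetal albumin-like protein, made up much of the difference between sets 5 and 2, at 2892 and 2728 FPKM in NACER_ASO and NC of set 5, against 912.3 and 766.7 FPKM in set 2. Not every hepatocyte marker went that way, since FGB had 52.8 and 54.1 FPKM in NACER_ASO and NC of set 5, against 188.7 and 177.6 FPKM in set 2, and TTR and GPC3 were also lower in both libraries of set 5 than in those of set 2. Endothelial markers summed to at most 1.07 FPKM in any library. The 3 stromal markers summed to 13.9 and 12.8 FPKM in NACER_ASO and NC of set 2, 1.73 and 1.52 FPKM in set 5, and 5.60 and 4.60 FPKM in set 6, and of the white blood cell markers PTPRC and CD3E stayed under 1 FPKM while CD68 had between 37.0 and 66.9. The 2 bile duct markers summed to between 25.3 and 45.4 FPKM, nearly all of it SOX9. The part of these differences in the kinase values was not tested.

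The contrast of the mitotic with the stress-induced members was taken in each library as the mean log2(FPKM + 1) of PLK1 and PLK4 minus that of PLK2 and PLK3. It was -0.16, 2.37 and -0.20 in NACER_ASO sets 2, 5 and 6, against -0.20, 2.48 and 0.07 in NC. The mitotic pair stood far above the stress-induced pair in both libraries of set 5, and in sets 2 and 6 the pairs were about level. The group means were 0.67 ± 1.47 in NACER_ASO and 0.78 ± 1.47 in NC (SD, n = 3 each), and the within-set differences, NACER_ASO minus NC, were 0.04, -0.11 and -0.27 in sets 2, 5 and 6. The gap in set 5 came from the stress-induced side, whose mean was 2.14 in NACER_ASO and 2.02 in NC of set 5, against values between 4.40 and 4.86 in the other 4 libraries. The mitotic mean lay between 4.35 and 4.66 in all 6 libraries. That mean hides opposite moves, since in set 5 against set 2 PLK1 had 0.46 and PLK4 -0.72.

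**Figure D4:**
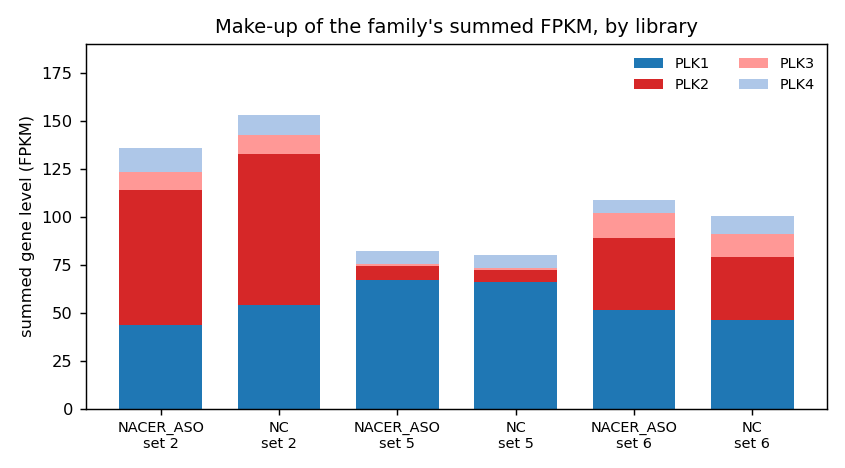
Summed gene level of the 4 kinases in FPKM (y axis), stacked by gene, in each library (x axis), with NACER_ASO to the left of NC within a set. PLK2 forms 52.0% and 51.7% of the sum in NACER_ASO and NC of set 2, but 8.58% and 7.57% in set 5, where PLK1 forms 81.6% and 82.6%.

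As parts of the summed FPKM of the family, PLK1 took 32.0% and 35.1% in NACER_ASO and NC of set 2, 81.6% and 82.6% in set 5, and 47.1% and 45.8% in set 6. The sum itself was 135.5 and 153.1 FPKM in NACER_ASO and NC of set 2, 82.2 and 80.0 FPKM in set 5, and 108.9 and 100.4 FPKM in set 6. PLK2 stood above PLK3 by 7.55 and 8.27 times in NACER_ASO and NC of set 2, 4.97 and 4.56 times in set 5, and 2.88 and 2.72 times in set 6, so the stress-induced pair did not keep a constant ratio either.

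Immediate early genes, a fast serum and stress response among which PLK2 and PLK3 were first described, were low in set 5. Without the kinases, 22 of 22 genes tested were lower in set 5 than in set 2 (median -2.61, range -4.97 to -0.99, median of all genes -0.26, with 46.8% of all genes called lower). Against set 6, 21 of 22 were lower in set 5 (median -1.16, with 40.6% of all genes called lower), and between sets 6 and 2, 17 were lower and 1 higher (median -0.95, with 27.3% of all genes called lower and 20.9% higher). EGR1, an early growth response factor, had 43.3, 2.30 and 7.94 FPKM in NACER_ASO sets 2, 5 and 6, against 56.4, 3.17 and 6.54 FPKM in NC. FOS, a subunit of AP-1, had 67.6, 5.30 and 8.51 FPKM in NACER_ASO, against 71.5, 4.36 and 5.78 FPKM in NC. ATF3, a stress-induced factor, had 68.8, 9.41 and 50.1 FPKM in NACER_ASO, against 57.3, 8.87 and 47.5 FPKM in NC. EGR1, FOS and ATF3 each followed the order of PLK2, with set 6 between the others. For EGR1 and FOS, set 6 lay nearer to set 5, and for ATF3 nearer to set 2.

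Among growth arrest and DNA damage response genes, 13 of 18 genes tested were lower and 1 higher between sets 5 and 2 (median -0.54, against -0.26 for all genes, of which 46.8% were called lower and 23.5% higher). In set 5 against set 6, 10 were lower and 2 higher (median -0.54, against -0.16 for all genes, of which 40.6% were called lower and 23.8% higher). In set 6 against set 2, 6 were lower and 3 higher (median -0.05, against -0.04 for all genes). Of all genes, 27.3% were called lower and 20.9% higher in that comparison, so these counts are near the general share. With quantile normalization 7 were lower and 1 higher in set 5 than in set 2 (median -0.12, against 0.03 for all genes). That setting called 4324 of the 13576 genes lower and 4737 higher. Without NACER_ASO set 5 the list median was -0.40, against -0.23 for all genes. GADD45A, a growth arrest gene, had 198.7, 20.1 and 133.6 FPKM in NACER_ASO sets 2, 5 and 6, against 223.0, 20.2 and 134.6 FPKM in NC, and it passed between sets 5 and 2 at -3.32 (limma adjusted p = 4.26e-06). CDKN1A, which encodes p21, had 32.0, 39.2 and 65.1 FPKM in NACER_ASO, against 37.4, 40.3 and 50.9 FPKM in NC, with 0.20 between sets 5 and 2 (limma adjusted p = 0.239). It was lower in set 5 than in set 6, by -0.52 (0.0164), and higher in set 6 than in set 2, by 0.72 (0.00799). MDM2, which encodes a ubiquitin ligase, had 12.1, 14.1 and 13.6 FPKM in NACER_ASO, against 11.8, 14.9 and 14.7 FPKM in NC.

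**Figure D5:**
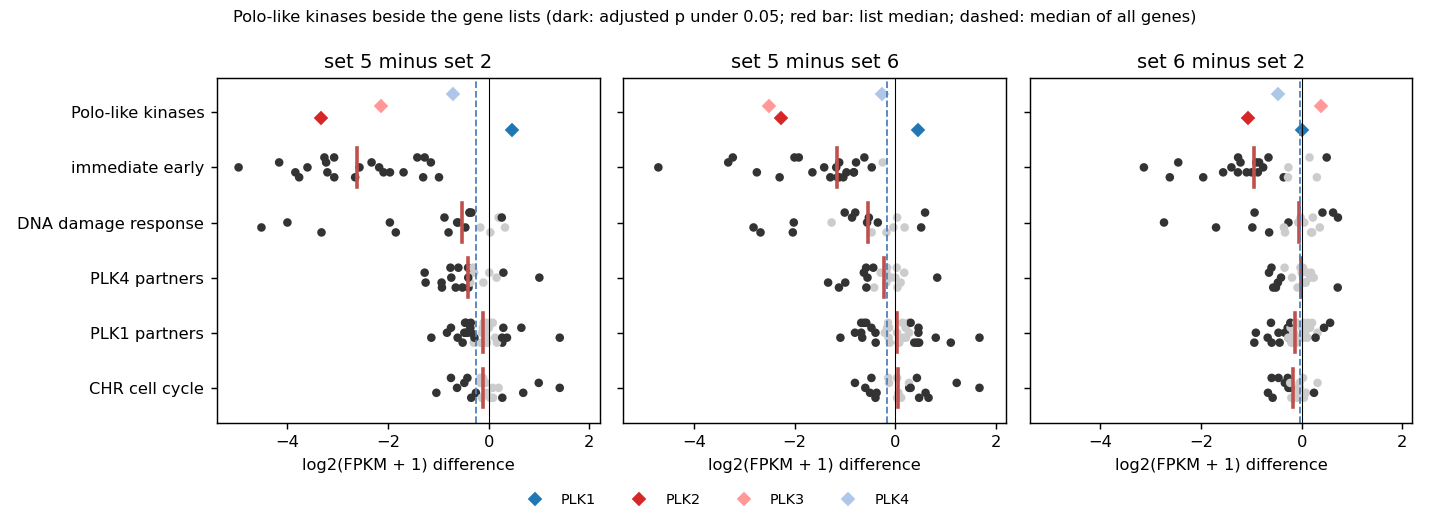
Differences between sets in log2(FPKM + 1) (x axes) for the Polo-like kinases (diamonds) and for the genes of 5 lists (rows), where dark points passed an adjusted p under 0.05, red bars are list medians and the dashed line is the median of all genes. Between sets 5 and 2 the immediate early genes, with a median of -2.61, lie around PLK2 and PLK3, and the PLK1 partners, with a median of -0.11, lie on both sides of 0, between -1.14 and 1.41.

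Activators, partners and mitotic substrates of PLK1 moved both ways. Of 37 tested, 6 were higher and 14 lower in set 5 than in set 2 (median -0.11), but 12 were higher and 5 lower with median-of-ratios scaling. The median was -0.14 without NACER_ASO set 5 and -0.09 without NC set 5, against -0.23 and -0.28 for all genes. In set 5 against set 6, 9 were higher and 10 lower (median 0.04), or 18 and 8 with that scaling. Of all genes, 23.5% were called higher and 46.8% lower in set 5 than in set 2, and 23.8% higher and 40.6% lower than in set 6. With median-of-ratios scaling, 4587 of the 13576 genes were higher and 4817 lower in set 5 than in set 2, and 4345 higher and 4382 lower than in set 6. In set 6 against set 2, 3 of the 37 were higher and 11 lower (median -0.13, against -0.04 for all genes). Of all genes, 20.9% were called higher and 27.3% lower there. AURKA, the kinase that activates PLK1, was higher in set 5 than in sets 2 and 6, by 0.27 (limma adjusted p = 0.01998) and 0.47 (0.00239). It had 59.8, 72.9 and 55.1 FPKM in NACER_ASO sets 2, 5 and 6, against 63.1, 75.7 and 51.2 FPKM in NC. FOXM1, which drives transcription of G2 and mitosis genes, was higher in set 5 by 0.29 (0.0122) and 0.46 (0.00211). BORA, the cofactor of AURKA in that step, had 15.2, 17.7 and 9.68 FPKM in NACER_ASO, against 16.6, 17.3 and 9.48 FPKM in NC, and passed between sets 5 and 6 at 0.81 (0.000510). CCNB1, the mitotic cyclin B1, had 82.0, 82.4 and 79.6 FPKM in NACER_ASO, against 85.0, 80.3 and 75.8 FPKM in NC, and its set differences did not pass (limma adjusted p between 0.262 and 0.650). CDC25C, the phosphatase that PLK1 activates, was lower in set 6 than in set 2 by -0.60 (0.00371), and FZR1, an adaptor of the complex that degrades PLK1, was higher there by 0.56 (0.00442). Cell cycle genes known for a CHR element, the list nearest in promoter type to PLK1, were also divided in the comparisons of set 5. Of 21, 4 were higher and 7 lower than in set 2 (9 and 3 with median-of-ratios scaling), and 8 higher and 6 lower than in set 6. The median against set 2 was -0.07 without NACER_ASO set 5. Against set 6 it was 0.10, 0.08 and 0.03 without NACER_ASO set 5, NC set 5 and NC set 6. Between sets 6 and 2, 1 was higher and 8 lower (median -0.18, against -0.04 for all genes). With quantile normalization it was 0 higher and 11 lower, where 3718 of the 13576 genes were higher and 2851 lower.

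Of 20 PLK4 partners in centriole duplication, 12 were lower and 2 higher in set 5 than in set 2 (median -0.41), where 46.8% of all genes were lower. With quantile normalization 5 were lower and 3 higher, where 4324 of the 13576 genes were lower and 4737 higher. Without NACER_ASO set 5 the median was -0.38, against -0.23 for all genes. Against set 6, 8 were lower and 1 higher (median -0.23), which is near the 40.6% of all genes called lower. Without NACER_ASO set 5 that median was -0.26, against -0.13 for all genes. Between sets 6 and 2, 6 were lower and 1 higher (median -0.01, against -0.04 for all genes), where 27.3% of all genes were lower and 20.9% higher. STIL, which PLK4 phosphorylates to start a new centriole, had 19.1, 11.01 and 12.1 FPKM in NACER_ASO sets 2, 5 and 6, against 20.8, 11.7 and 13.6 FPKM in NC, and passed between sets 5 and 2 at -0.76 (limma adjusted p = 0.000402). SASS6, the cartwheel protein, had 10.04, 4.77 and 7.29 FPKM in NACER_ASO, against 7.65, 4.91 and 7.82 FPKM in NC, and passed at -0.74 (0.00370). The recruiters of PLK4 gave -0.41 for CEP192 (0.0231) and -0.37 for CEP152 (0.0627), and BTRC, an adaptor of the ligase that degrades PLK4, was lower in set 5 than in set 6 by -1.12 (0.000389).

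In none of the 5 lists did a gene pass between NACER_ASO and NC, with or without the block. Their medians were 0.05 for PLK1 partners, 0.05 for PLK4 partners, 0.02 for DNA damage response genes, 0.07 for CHR genes and -0.20 for immediate early genes, beside 0.04 for all genes. Of the immediate early genes 17 of 22 had a negative difference, and 5 a positive one. This split was not tested, and these genes moved together between sets, so their signs are not separate observations. Among single genes, FBXW7, an adaptor of a ubiquitin ligase, had -0.16 and CDC25C 0.20.

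Genes whose pattern over the 6 libraries was nearest to each kinase were taken by the smallest root mean square difference of centred log2(FPKM + 1) values among 13576 genes. For PLK2 these were APOA2, an apolipoprotein (0.132, Pearson r = 0.998), LIN28A, an RNA-binding protein of early cells (0.133, r = 0.997), and ZNF350, a zinc finger protein (0.158, r = 0.994). APOA2 had 518.5, 65.2 and 320.1 FPKM in NACER_ASO sets 2, 5 and 6, against 538.5, 60.2 and 285.8 FPKM in NC. For PLK3 they were MMP19, a matrix metalloproteinase (0.0437, r = 0.999), ZYX, which encodes the focal adhesion protein zyxin (0.0540, r = 0.999), and PLXND1, a semaphorin receptor (0.0707, r = 0.999). ZYX had 130.9, 33.1 and 180.2 FPKM in NACER_ASO, against 144.4, 31.3 and 172.6 FPKM in NC. MMP19 was near 0 in set 5, at 0.0524 FPKM in NACER_ASO and 0.0298 FPKM in NC. LIN28A (0.0468 and 0.0508 FPKM) and ZNF350 (0.0606 and 0.0350 FPKM) were near 0 there too. For these genes the likeness in set 5 rests on values near the floor, where the log2(FPKM + 1) scale understates changes.

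For PLK1 the nearest genes were ELP5, an Elongator subunit (0.0469, r = 0.981), the microRNA gene MIR7113 (0.0483, r = 0.995) and MRPL21, a mitochondrial ribosomal protein gene (0.0504, r = 0.978). For PLK4 they were USP45, a deubiquitinase (0.0574, r = 0.989), RBMXL1, an RNA-binding protein gene (0.0679, r = 0.978), and LATS1, a Hippo pathway kinase (0.0767, r = 0.979). The points share 3 sets, so such r values describe a common order of sets. Between members, r was 0.896 for PLK2 with PLK3 and -0.843 and -0.887 for PLK1 with PLK2 and PLK3. PLK4, the other mitotic member, had -0.785 with PLK1, 0.836 with PLK2 and 0.611 with PLK3.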

How the data were processed

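RNA of 6 Huh7 libraries, 3 NACER_ASO and 3 NC, was measured. Per the labels' protocols, libraries were made from 1 ug of Trizol-extracted total RNA with a stranded mRNA kit. The authors deposited FPKM values for RefSeq transcripts on hg19. The tools named, per the submitters' processing notes, are StringTie 1.3.3b, Bowtie2 2.2.6 and FastQC 0.11.5. Settings and use of strand are not stated in the labels. FPKM divides reads among overlapping isoforms, and no count test was possible.

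Depth is not given. The commonest low step of FPKM times length, over genes with 1 transcript, was read as 1 fragment. It gave a rough 80.5 fragments for PLK3 in NC set 5, the fewest of any member in any library, but 33.1% to 44.5% of low values were whole multiples within 2%, so no reads could be recovered. Genes at 1 FPKM or more numbered 12738 to 14635 a library.

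Values were summed by symbol and genes reaching 1 FPKM in 3 or more libraries kept (13576). Their log2(FPKM + 1) was fitted with limma 3.58.1 in R 4.3.3 with a mean-variance trend, two-sided, with Benjamini-Hochberg adjustment over all genes at 0.05. This scale understates changes of low genes. The treatment fit had the group as its only term, and the set fit had set and group. Single transcripts were fitted alike. The fits were tested on simulated data, with the outcome not given here. For the set fit, the simulated sets shared each gene's mean except for a few changed genes, unlike the real sets. The set numbers pair the libraries. After subtraction of group means, same-set libraries correlated across genes at 0.901, 0.966 and 0.898 in sets 2, 5 and 6, and other pairs at most at 0.0604. The members and lists were chosen with earlier results of these data known. Named list genes were fixed by role (1 is not reported here), and the nearest genes by the smallest pattern difference. Alternatives covered pseudocount, filter, scaling, gene value, block and libraries left out.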

Additional observations from a re-analysis of the deposited data

How the results depend on the processing

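Calls of PLK2 in the 3 pairs of sets, and of PLK3 between set 5 and the others, held under every alternative run on gene sums. No member was called between NACER_ASO and NC under any alternative. With the set number as a replicate block 0 genes were called, and the PLK1 difference kept its -0.04. The blocked fit called 3 genes without both libraries of set 2, 14 without set 5 and 58 without set 6. It then gave 0.087 for PLK1 without set 2 and 0.10 for PLK4 without set 6. Quantile normalization gave -0.0073 for PLK3.

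Leaving out 1 library at a time, the treatment difference ran between -0.21 and 0.099 for PLK1, -0.89 and 0.97 for PLK2, -0.74 and 0.81 for PLK3, and -0.33 and 0.080 for PLK4. Single transcripts ran between -0.28 and 0.072 for PLK4 variant 1 and between -0.89 and 0.97 for PLK2 variant 1. Between sets 5 and 2, PLK1 ran between 0.26 and 0.65. In set 5 against set 6, PLK1 ran between 0.30 and 0.60, PLK4 between -0.51 and -0.0060, and PLK4 variant 1 between -0.50 and 0.023. In set 6 against set 2, PLK1 ran between -0.19 and 0.20, PLK3 between 0.32 and 0.43, and PLK4 between -0.71 and -0.21. PLK4 passed in set 5 against set 6 without NACER_ASO set 6 (limma adjusted p = 0.0260), and in set 6 against set 2 without NC set 2 (0.0354) or NC set 6 (0.0116).

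PLK4 between sets 5 and 2 no longer passed with quantile normalization (-0.43) or the most abundant transcript (-0.58), nor did PLK3 between sets 6 and 2 with the most abundant transcript (0.38). PLK1 between sets 6 and 2 was -0.0034 rescaled to equal sums and -0.086 with quantile normalization, or -0.087 as a single transcript.

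Calls between sets 6 and 2 numbered 6550 genes, against 4310 with a filter of 5 FPKM and 3752 with the most abundant transcript. Transcript calls numbered 8159 between sets 5 and 2, against 5176 with the stricter filter and 1826 to 6211 with a library left out. They numbered 6515 between sets 5 and 6 (1132 to 5984) and 2272 between sets 6 and 2 (0 to 1, and 0 without a filter, where 12966 had an unadjusted p under 0.05). The stricter filter tests fewer features, and leaving out a library leaves 1 in its set, assumed to vary like the others. Otherwise the cause was not tested. With 2 libraries a set and no counts, differences of the size of PLK1 and PLK4 are near the limit of what these data resolve.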

Other observations

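PLK5, a family member outside the 4 and in humans a protein without most of the kinase domain, was below the filter. It was chosen after its values were seen. PLK5 had 0.413, 0.422 and 0.241 FPKM in NACER_ASO sets 2, 5 and 6, against 0.0319, 0.157 and 0.0540 FPKM in NC, and so was higher in NACER_ASO in 3 of 3 sets. At the rough depths these are 17.4, 23.0 and 11.2 fragments in NACER_ASO, against 0.965, 7.39 and 2.48 in NC. Of 3588 genes below the filter with no value of 0, 32.2% were higher and 7.19% lower in NACER_ASO in all 3 sets, so the shared direction alone does not set PLK5 apart. The gene was not tested.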
